A study of Mus musculus with 16 samples.

Results

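The genes described here are 8 Toll-like receptor genes (Tlr1, Tlr2, Tlr3, Tlr4, Tlr7, Tlr9, Tlr12 and Tlr13) and the 2 lipopolysaccharide co-receptor genes Cd14 and Ly96. They were taken by symbol from a count table of 22058 mouse genes, and all 10 were in it. Of these, 8 passed the filter on low counts and were among the 9091 genes tested, while Tlr9 and Ly96 did not pass it. The 16 libraries came from 4 animals, numbered 2 to 5 in the labels, and each animal gave 1 library of each group, so that every group has n = 4. The groups were CD11b+ microglia, EAAT2+ astrocytes and Thy1+ neurons, sorted from dissociated brain with O1+ and CD31+ cells gated out, and the input of the same animals. All 4 groups came from untreated male C57BL/6 mice with a wildtype genotype. The labels do not give the animals' ages, nor the step at which the input, titled as pooled, was taken. The comparisons ask in which sorted cells these receptor genes were read at a higher or lower level than in the input and in the other sorted cells.

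Toll-like receptors are membrane proteins of the innate immune system that bind molecules of microbes or of damaged cells. Many of those at the cell surface bind bacterial lipids and lipopeptides, and most of those in endosomes bind nucleic acids. Bound receptors recruit the adaptor MyD88 or, for Tlr3 and for internalised Tlr4, the adaptor TRIF, and the signal ends in NF-kappaB and interferon regulatory factors. In the brain, microglia are the resident macrophages and are known for carrying most of these receptors, while Tlr3 is also known from astrocytes.

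On GRCm38.p6, as the deposited table gives it, the lipopolysaccharide receptor genes are Tlr4 (ENSMUSG00000039005) on chromosome 4 from 66827584 to 66930284, Cd14 (ENSMUSG00000051439) on chromosome 18 from 36725074 to 36726736 and Ly96 (ENSMUSG00000025779) on chromosome 1 from 16688051 to 16709611. The lipopeptide receptor genes are Tlr1 (ENSMUSG00000044827) on chromosome 5 from 64924679 to 64933563 and Tlr2 (ENSMUSG00000027995) on chromosome 3 from 83836272 to 83841767. Of the nucleic acid receptors, Tlr3 (ENSMUSG00000031639) lies on chromosome 8 from 45395665 to 45411080, Tlr7 (ENSMUSG00000044583) on chromosome X from 167304929 to 167330558, Tlr9 (ENSMUSG00000045322) on chromosome 9 from 106222598 to 106226883 and Tlr13 (ENSMUSG00000033777) on chromosome X from 106143204 to 106160493. Tlr12 (ENSMUSG00000062545) lies on chromosome 4 from 128615443 to 128618619. In GENCODE M21, an antisense gene, Gm45542, overlaps Tlr3 on the other strand, and the strand setting of the counting is not given in the sources used here. Whether reads of Tlr3 and Gm45542 were told apart where both genes overlap is then not known. The overlap of their exons was not examined. Tlr1 shares 380 of its 3317 stretches of 65 bases, the read length, with the paralog Tlr6, but none of those lie within the last 500 bases of its 3 transcripts, where reads of 3' ends fall. A further 27 stretches, in the tail of 1 transcript, occur in other genes. The other 9 genes share no such stretch with another gene.

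Levels are given in CPM, counts scaled to a common library total, on the library size scaled by the trimmed mean of M-values (TMM), and each list of 4 values runs over animals 2, 3, 4 and 5. The depth was 191236 to 1413564 counts per microglia library, 211087 to 710828 per astrocyte library, 116761 to 393199 per neuron library and 1702665 to 2811080 per input library. A single count is then worth 0.71 to 5.01 CPM in microglia and 1.64 to 5 CPM in astrocytes. In neurons it is worth 2.5 to 8.54 CPM, and in the input 0.333 to 0.511 CPM. The neuron libraries are thus the least precise for these genes. The libraries hold 3' ends and the values are not scaled to length, so that levels are compared between groups for 1 gene and not between genes.

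Tlr4, Tlr7 and Ly96 had no row in the RefSeq table of promoters, on GRCm38.p6, and Cd14 was left out of this search. The 7 windows of the other 6 of the 10 genes were used, each with 250 bases before and 50 bases after a start. Below are the upstream bases of 4 of them, chosen because the results turn on these genes: Tlr3, the gene that was highest in astrocytes, and Tlr2, Tlr12 and Tlr13, which were highest in microglia. They lie at chr8:45410381-45410630, chr3:83841609-83841858 and chr4:128618620-128618869 on the minus strand and at chrX:106143025-106143274 on the plus strand, and are written 5′ to 3′ on the strand of the gene. Capitals mark a match to the core bound by the myeloid factor PU.1.
Tlr3: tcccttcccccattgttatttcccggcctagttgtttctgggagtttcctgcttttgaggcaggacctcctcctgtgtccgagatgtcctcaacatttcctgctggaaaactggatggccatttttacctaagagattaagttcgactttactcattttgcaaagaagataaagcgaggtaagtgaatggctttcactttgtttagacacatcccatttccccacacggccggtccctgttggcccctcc
Tlr2: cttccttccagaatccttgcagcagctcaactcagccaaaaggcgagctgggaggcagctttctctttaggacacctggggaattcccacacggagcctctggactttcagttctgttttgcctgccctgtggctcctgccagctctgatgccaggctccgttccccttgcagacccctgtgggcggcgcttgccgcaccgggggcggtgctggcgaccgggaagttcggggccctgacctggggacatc
Tlr12: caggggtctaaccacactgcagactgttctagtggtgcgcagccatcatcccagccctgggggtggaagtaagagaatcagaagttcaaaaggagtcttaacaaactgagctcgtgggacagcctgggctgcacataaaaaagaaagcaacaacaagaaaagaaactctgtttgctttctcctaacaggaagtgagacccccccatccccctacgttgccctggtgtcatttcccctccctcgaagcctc
Tlr13: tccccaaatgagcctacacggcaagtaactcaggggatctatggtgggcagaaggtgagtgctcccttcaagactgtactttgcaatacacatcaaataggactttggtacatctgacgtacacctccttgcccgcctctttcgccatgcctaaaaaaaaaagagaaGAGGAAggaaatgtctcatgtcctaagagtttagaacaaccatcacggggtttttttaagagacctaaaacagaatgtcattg
The 4 motifs below were searched on both strands of the whole windows. The PU.1 core GAGGAA was in 3 of the 7 windows, of 3 of the 6 genes. It was at position -23 of Tlr1, -112 and 13 of Tlr9 and -83 of Tlr13, counted from the start. It was in 28.3% of all 32851 windows of the table. The AP-1 motif TGANTCA was in 1 of the 7 windows, that of Tlr9, at position -58, and in 7.81% of all windows. The NF-kappaB core GGAANTTCC, in 0.928% of all windows, and the interferon response core GAAANNGAA, in 8.56%, were in none of the 7 windows. Other forms of the NF-kappaB site were not searched. The Tlr2 bases above hold gggaattccc, which lacks the base N between GGAA and TTCC and is thus no match to this form. The motifs do not overlap one another in these windows, and a match is a description of the letters only. The Tlr3 window lies inside the gene as GENCODE draws it, and the upstream bases of Tlr2 and Tlr13 lie partly inside theirs.

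The labels were checked with marker lists. In microglia, all 19 microglia markers found in the table were higher than in the input, and their sum was 47050 to 71550 CPM in microglia, against 10510 to 12520 CPM in the input. In astrocytes, 11 of 12 astrocyte markers were higher than in the input, with Gfap the exception, and their sum was 29500 to 43340 CPM in astrocytes, against 7567 to 13670 CPM in the input. Of the 13 neuron markers, 10 were higher in neurons than in the input, and their sum was 3341 to 5504 CPM, against 1092 to 1716 CPM in the input. The neuron libraries also held 2654 to 8070 CPM of the astrocyte markers. The T and NK cell markers summed there to 226.9 to 467.9 CPM, against 6.662 to 11.42 CPM in the input. Microglia transcripts were present in every library, with none of the 19 markers at 0 in any group. They summed to 2867, 9307, 3046 and 9076 CPM in astrocytes and to 10220, 4702, 12440 and 3479 CPM in neurons, so that astrocytes 3 and 5, the shallower of the 4 astrocyte libraries, stood above astrocytes 2 and 4. The neuron library of animal 5 also held 79650 CPM of pituitary hormone transcripts, against 600.2 to 1368 CPM in the other neuron libraries. In such bulk samples, fewer cells of a type and less RNA per cell cannot be told apart. In comparisons with the input, cell type and the sort itself cannot be told apart either.

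Microglia held 7 of the 8 tested genes at a higher level than the input, and Tlr3 was the gene that did not pass. Of all tested genes, 24.1% were higher and 29.8% lower in microglia by the same rule, 53.9% in all. For 6 of the 8 genes every microglia library was above every input library, and 52.4% of all genes had no overlap in either direction. The median log2 fold change of the 8 genes was 1.93, and that of all genes was -0.04. Markers of other myeloid cells were higher in the same comparison, 7 of 7 for border macrophages and 8 of 10 for monocytes and neutrophils. The border macrophage markers, none at 0 in any group, summed to 720.5 to 1162 CPM in microglia, against 195.5 to 274.4 CPM in the input, and their part in the receptor levels was not tested. The plot of CPM by library shows all 10 genes.

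**Figure D1:**
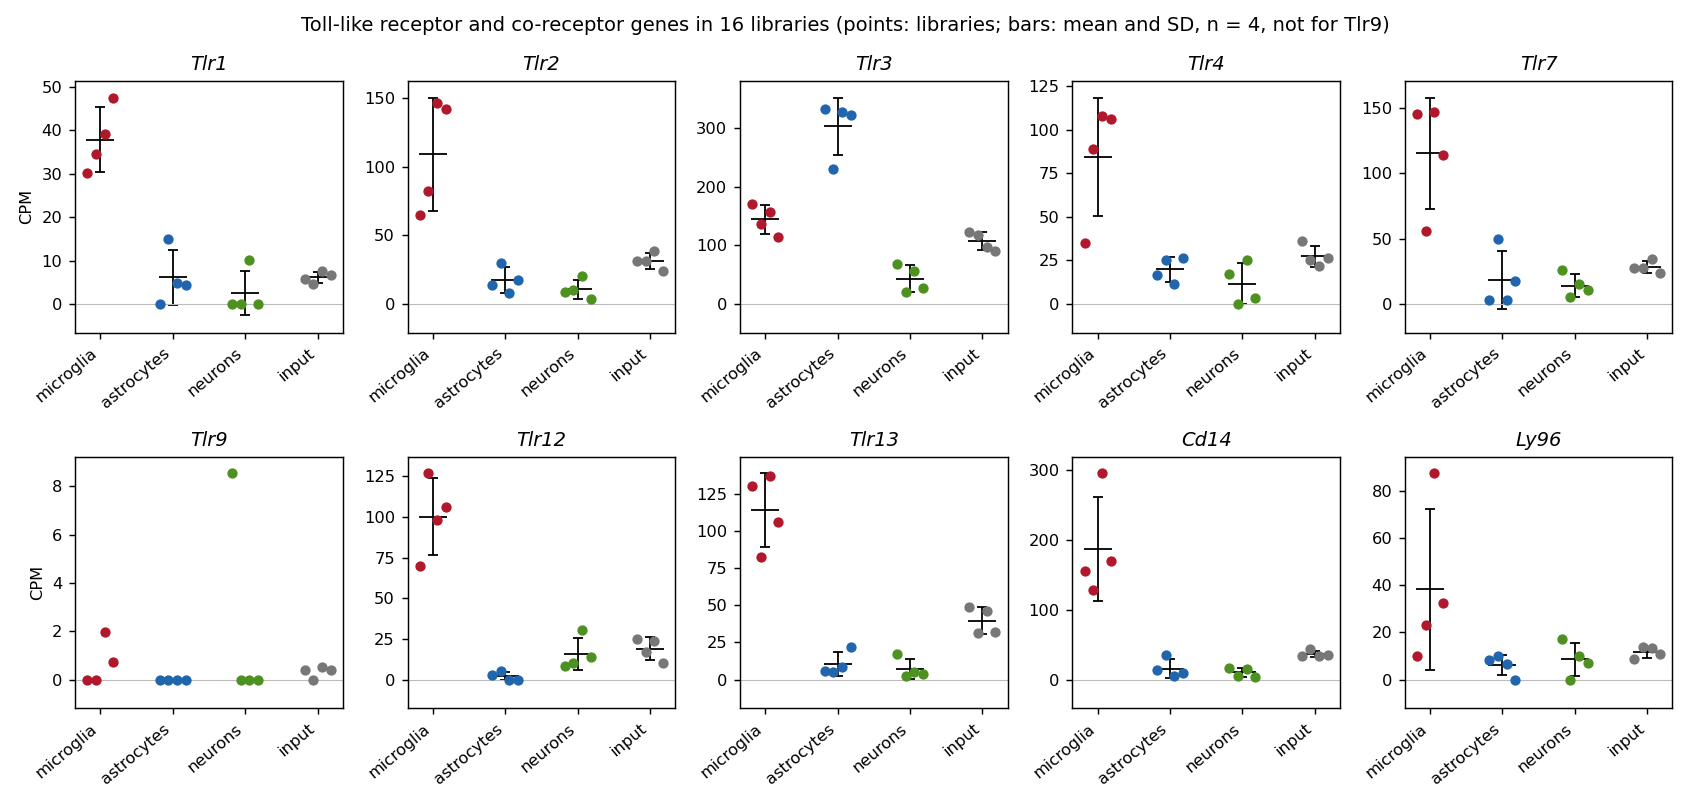
CPM (y axis) of the 10 genes in microglia, astrocytes, neurons and input, with 1 point per library and the mean and SD of n = 4 as bars, which are left out for Tlr9 with 0 to 3 counts per group. Tlr3 stands highest in the 4 astrocyte libraries at 230 to 332 CPM, while Tlr1, Tlr2, Tlr4, Tlr7, Tlr12, Tlr13, Cd14 and Ly96 have their highest mean in microglia.

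The lipopolysaccharide receptor is built from Tlr4, from Ly96, which encodes the lipid-binding partner MD-2, and from Cd14, which hands lipopolysaccharide over to them. Tlr4 stood at 35.1, 88.8, 108 and 106 CPM in microglia and at 35.9, 25.3, 21.5 and 26.4 CPM in the input. Microglia 2, the shallowest microglia library, lay just under input 2, so that the groups overlapped, while the other 3 microglia libraries were above every input library. The log2 fold change was 1.71 ± 0.36 (SE), with an adjusted p of 0.000155 by edgeR's quasi-likelihood test with Benjamini-Hochberg adjustment, as for every adjusted p here unless another tool is named. In astrocytes Tlr4 stood at 16.6, 25, 11.5 and 26.6 CPM and did not pass against the input (log2 fold change -0.60 ± 0.48, adjusted p = 0.345). In neurons it stood at 17.1, 0, 25.2 and 3.44 CPM, from 8 counts in all, with a log2 fold change of -1.69 ± 0.68 against the input (adjusted p = 0.044). That call was lost with the animal as a block (-1.68, adjusted p = 0.0667) and with DESeq2 (-1.53, adjusted p = 0.0531). It was also lost without microglia 4 or 5, astrocytes 2 or 4, neurons 3 or 5, or input 2, 3 or 5, with adjusted p from 0.0528 to 0.268. The order of the means was microglia, input, astrocytes and neurons, and the last 3 groups overlapped one another.

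Cd14 stood at 155, 128, 295 and 170 CPM in microglia and at 34.3, 43.3, 34.2 and 35.1 CPM in the input. Every microglia library was above every input library, and the log2 fold change was 2.36 ± 0.31 (adjusted p = 3.43e-07). Astrocytes held 13.8, 35, 4.92 and 8.86 CPM, of which astrocytes 3 reached the level of the input, and neurons held 17.1, 5, 15.1 and 3.44 CPM, all below the input. Cd14 was lower than in the input both in astrocytes (-1.49 ± 0.48, adjusted p = 0.012) and in neurons (-2.15 ± 0.63, adjusted p = 0.00469). The astrocyte call rests on astrocytes 4, without which it was -0.89 (adjusted p = 0.179). The neuron call rests on 8 counts. Thinned to the smallest library, neither call passed (-1.10, adjusted p = 0.215 in astrocytes and -1.85, adjusted p = 0.0712 in neurons). Against a 2-fold change, the adjusted p was 0.262 in astrocytes and 0.108 in neurons. Cd14 averaged 187.1 ± 73.72 CPM in microglia and 36.73 ± 4.405 CPM in the input (SD, n = 4 each). The averages of astrocytes, 15.64 ± 13.39 CPM, and neurons, 10.15 ± 6.93 CPM, were lower, and those 2 groups overlapped.

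Ly96 was too low for the filter and entered no test of the main model. It stood at 10, 23, 87.4 and 32.6 CPM in microglia and at 8.56, 13.7, 13.3 and 10.7 CPM in the input. Microglia 2 lay within the input's range and the other 3 microglia libraries above it. Astrocytes held 8.3, 9.99, 6.55 and 0 CPM from 9 counts, and neurons 17.1, 0, 10.1 and 6.88 CPM from 6 counts, both overlapping the input. In a fit with no filter, Ly96 was higher in microglia than in the input, with a log2 fold change of 1.95 and an adjusted p of 1.93e-05, and higher than in astrocytes (2.79, adjusted p = 2.37e-05) and neurons (2.86, adjusted p = 0.00011). Microglia 4 held the most Cd14 and Ly96 of the microglia libraries. In the library microglia 4, the 10 markers of monocytes and neutrophils summed to 12190 CPM, against 3191 to 4012 CPM in the other microglia libraries and 528.7 to 1663 CPM in the input, with none at 0 in a group, and their part in these levels was not tested. Without microglia 4, Cd14 was still higher in microglia than in the input, by 2.22 on the log2 scale (adjusted p = 3.68e-06), and Ly96 stood at 10, 23 and 32.6 CPM in the microglia left.

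Tlr2 pairs with Tlr1 to bind bacterial lipopeptides, and both genes were higher in microglia than in every other group. Tlr2 stood at 65.1, 82.3, 147 and 142 CPM in microglia and at 31, 31.6, 38.8 and 24 CPM in the input, with no overlap and a log2 fold change of 1.86 ± 0.31 (adjusted p = 9.57e-06). The 2 deeper microglia libraries, of animals 4 and 5, held the more Tlr2. In astrocytes Tlr2 stood at 13.8, 30, 8.19 and 17.7 CPM, and in neurons at 8.54, 10, 20.1 and 3.44 CPM. Astrocytes 3 lay within the range of the input, and every neuron library below it. Neurons lay below the input (-1.63 ± 0.57, adjusted p = 0.0202), a call lost without neurons 3 (-1.63, adjusted p = 0.0754) or neurons 5 (-1.29, adjusted p = 0.0971). Astrocytes did not pass (-1.04 ± 0.45, adjusted p = 0.0638) but did without astrocytes 3 (-1.38, adjusted p = 0.0241), the library with the highest value. The order of the means was microglia, input, astrocytes and neurons, and astrocytes and neurons overlapped.

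Tlr1 was low outside microglia. It stood at 30.1, 34.5, 39.3 and 47.6 CPM in microglia and at 5.71, 4.66, 7.66 and 6.61 CPM in the input, with no overlap and a log2 fold change of 2.66 ± 0.44 (adjusted p = 6.04e-06). Astrocytes held 7 counts (0, 15, 4.92 and 4.43 CPM) and neurons 2 counts, both in neurons 4. Against the input, neither astrocytes (-0.25 ± 0.74, adjusted p = 0.815) nor neurons passed the test (adjusted p = 0.28 in neurons). Without neurons 4, which leaves neurons with no count, Tlr1 was lower in neurons than in the input (adjusted p = 0.0471). Pooled over libraries, Tlr1 was 3.02-fold lower in neurons than in the input, with an exact 95% interval of 0.8 to 25.5, and 20.8-fold higher in microglia than in neurons, with an interval of 5.66 to 174. These intervals cover counting error only.

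Among the endosomal receptors, Tlr3 binds double-stranded RNA. Its order of levels was astrocytes, microglia, input and neurons, while microglia came first for the other 7 tested genes. Astrocytes held 332, 230, 328 and 323 CPM of Tlr3, against 122, 117, 97.1 and 90.9 CPM for the input. Microglia held 170, 137, 157 and 114 CPM, and neurons held 68.3, 20, 55.3 and 27.5 CPM. All 4 astrocyte libraries lay above all other libraries and all 4 neuron libraries below all others, while microglia 5 lay within the range of the input. Tlr3 averaged 303.2 ± 49.04 CPM for astrocytes, 144.4 ± 24.82 for microglia, 42.8 ± 22.83 for neurons and 106.7 ± 15.11 for the input (SD, n = 4 each).

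Tlr3 was the 1 tested gene of the 8 that was higher in astrocytes than in the input, by 1.51 ± 0.26 on the log2 scale (adjusted p = 3.6e-05), and 16.3% of all genes were higher there. Against a 2-fold change instead of no change, that adjusted p was 0.0605, and it was 0.356 for microglia against astrocytes and 0.211 for neurons against the input. It was higher in astrocytes than in neurons by 3.02 ± 0.34 (adjusted p = 1.03e-07). Microglia held less of it than astrocytes, with a log2 fold change of -1.10 ± 0.26 (adjusted p = 0.000888), which did not pass once every library was thinned to the smallest (-0.71, adjusted p = 0.0899). Microglia held more than neurons (1.93 ± 0.34, adjusted p = 2.3e-05), and neurons less than the input (-1.51 ± 0.34, adjusted p = 0.00112), which did not pass after the same thinning (-1.07, adjusted p = 0.0915). Between microglia and the input the difference was 0.41 ± 0.26 (adjusted p = 0.18), and it passed in a fit to these 2 groups only (0.54, adjusted p = 0.0222) and without astrocytes 3 and 5 (0.57, adjusted p = 0.0439).

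Tlr3 was also set beside the astrocyte markers of the same library. Per 1000 CPM of the 12 astrocyte markers, Tlr3 stood at 7.66, 7.79, 8.06 and 9.82 CPM in astrocytes, against 16.2, 8.53, 12.4 and 7.58 CPM in the input. The ratio was 37.5, 50.9, 114 and 67.4 in microglia and 9.13, 5.24, 6.86 and 10.4 in neurons. The neuron libraries overlapped those of astrocytes, and every microglia library lay above all libraries of the other groups. These ratios are descriptions, without a test, and the part of astrocyte transcripts in the Tlr3 levels of the other groups was not tested.

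**Figure D2:**
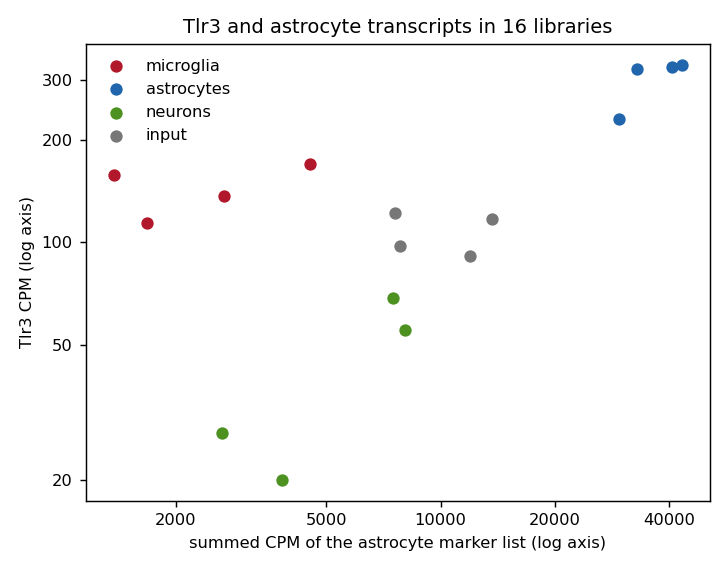
Tlr3 CPM (y axis, log scale) against the summed CPM of 12 astrocyte markers (x axis, log scale), with 1 point per library and the 4 groups in colours. The 4 microglia points lie at 114 to 170 CPM of Tlr3 with 1376 to 4539 CPM of the markers, and the 4 neuron points at 20 to 68.3 CPM of Tlr3 with 2654 to 8070 CPM of the markers.

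Tlr7 and Tlr13, which bind single-stranded RNA and bacterial ribosomal RNA in endosomes, had the microglial order of levels. Tlr7 stood at 145, 55.9, 147 and 114 CPM in microglia and at 27.3, 27.3, 34.7 and 24 CPM in the input, with no overlap and a log2 fold change of 2.01 ± 0.38 (adjusted p = 5e-05). Astrocytes held 2.77, 50, 3.28 and 17.7 CPM and neurons 25.6, 5, 15.1 and 10.3 CPM. The astrocyte libraries split, with astrocytes 3 and 5, the libraries with more microglia transcripts, above astrocytes 2 and 4. Over all 4, Tlr7 did not pass between astrocytes and the input (-1.05 ± 0.56, adjusted p = 0.137). Tlr7 was lower in astrocytes without astrocytes 3 (-2.21, adjusted p = 0.00455) and without astrocytes 3 and 5 (-3.02, adjusted p = 0.00165). Neurons did not pass against the input either (-1.31 ± 0.65, adjusted p = 0.119).

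Tlr13 stood at 130, 82.3, 137 and 106 CPM in microglia and at 48.9, 31.3, 46 and 32.2 CPM in the input, with no overlap and a log2 fold change of 1.52 ± 0.30 (adjusted p = 8.23e-05). In astrocytes it stood at 5.53, 5, 8.19 and 22.1 CPM, and in neurons at 17.1, 2.5, 5.03 and 3.44 CPM. All of these 8 libraries lay below the input. The log2 fold changes against the input were -2.05 ± 0.50 in astrocytes (adjusted p = 0.000761) and -2.93 ± 0.71 in neurons (adjusted p = 0.00034). Astrocytes and neurons overlapped, and their difference did not pass (0.88 ± 0.82, adjusted p = 0.441).

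Tlr9, the receptor for unmethylated DNA, was at the edge of detection. Microglia had 3 counts of it (0, 0, 2 and 1 by library) and the input also 3 (1, 0, 1 and 1), while neurons had 1 count and astrocytes none. The 0 counts in astrocytes allow up to 2.15 CPM over the group, at 3 counts. No difference was detectable at this depth. The pooled level in microglia was 3.04-fold that in the input, with an exact 95% interval of 0.407 to 22.7.

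Tlr12, known in mice as a receptor for the profilin of protozoan parasites, was near 0 in astrocytes. It stood at 70.1, 127, 98.2 and 106 CPM in microglia and at 24.9, 16.7, 24 and 9.91 CPM in the input, with no overlap and a log2 fold change of 2.44 ± 0.33 (adjusted p = 5.01e-07). Neurons held 8.54, 10, 30.2 and 13.8 CPM from 15 counts, overlapping the input, and did not pass (-0.30 ± 0.51, adjusted p = 0.705). Astrocytes held 2 counts, 1 each in astrocytes 2 and 3. Their pooled level was 12.9-fold lower than in the input (exact 95% interval 3.53 to 108, adjusted p = 0.000606) and 10.4-fold lower than in neurons (2.42 to 93.9, adjusted p = 0.00883). Between astrocytes and neurons the call was lost without astrocytes 4 (adjusted p = 0.0581). Microglia exceeded astrocytes 73.7-fold in pooled level, with an interval of 20.2 to 611 (adjusted p = 5.34e-09).

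**Figure D3:**
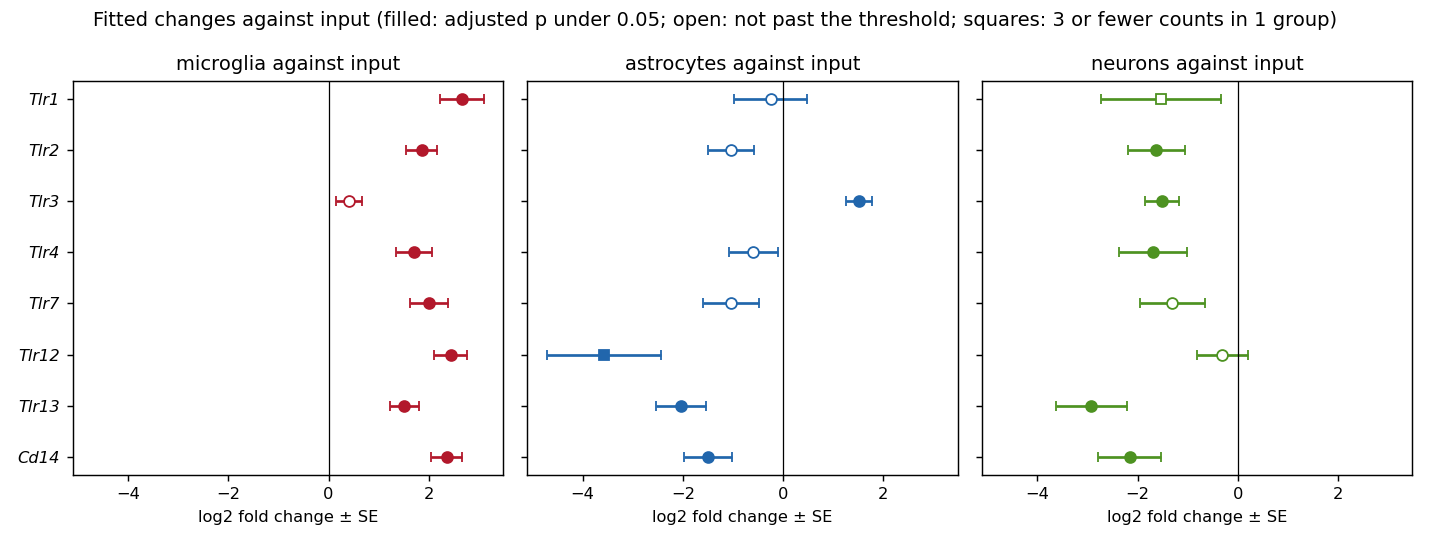
Fitted log2 fold changes with standard errors (x axes) of the 8 tested genes (y axis) in microglia, astrocytes and neurons against the input. Filled symbols passed an adjusted p of 0.05, open ones did not, and squares mark fits with 3 or fewer counts in 1 group: 7 of 8 genes were higher in microglia, Tlr3 alone was higher in astrocytes, and 5 were lower in neurons.

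Across the astrocyte comparison with the input, 1 of the 8 genes was higher and 3 were lower (Tlr12, Tlr13 and Cd14). By the same rule, 16.3% of all genes were higher and 19.1% lower, 35.4% in all. The libraries did not overlap for 3 of the 8, against 37.8% of all genes. The median was -1.05, against -0.09 over all genes. Without astrocytes 3 and 5, only the libraries astrocytes 2 and astrocytes 4 were left in that group. In that fit 5 of 9 genes were lower, with Tlr2 (-1.45, adjusted p = 0.0362) and Tlr7 added. Ly96, which then passed the filter, did not pass the test. Of all 10894 genes tested there, 1863 were higher and 1744 lower.

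Neurons held none of the 8 genes at a higher level than the input and 5 at a lower one (Tlr2, Tlr3, Tlr4, Tlr13 and Cd14), against 11.2% of all genes higher, 13.7% lower and 24.9% in all. The groups did not overlap for 4 of the 8, against 28.6% of all genes, and the median was -1.58 (-1.61 with Tlr1 at its pooled ratio), against -0.11. The count of lower genes among the 8 was 3 without neurons 3, 3 without neurons 5 and 1 against a 2-fold change. Over all genes, 799 of 9830 were lower without neurons 3, 950 of 9882 without neurons 5 and 168 of 9091 against a 2-fold change. Neurons 5 is the library with the pituitary transcripts and, of the neuron libraries, the fewest microglia transcripts.

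Microglia against astrocytes gave 7 higher genes and 1 lower one (Tlr3), with no overlap between libraries for all 8. Over all genes 23.8% were higher, 26.1% lower, 49.8% called in all and 37.2% without overlap. Among the genes with more than 3 counts in each group, the log2 fold changes of those that were higher ran from 2.31 ± 0.49 for Tlr4 to 3.86 ± 0.48 for Cd14. Microglia against neurons gave 8 higher genes of 8, again with no overlap, against 20.2% higher, 44.6% called in all and 30.8% without overlap over all genes. There Tlr3 differed least (1.93 ± 0.34) and Cd14 most (4.52 ± 0.63) among the same kind of genes. Astrocytes against neurons gave Tlr3 as higher and Tlr12 as lower, with 14.8% of all genes higher, 13.7% lower, 28.5% called in all and 19.9% without overlap. The other 6 genes did not pass. Their log2 fold changes ran from 0.26 ± 0.78 for Tlr7 to 1.09 ± 0.76 for Tlr4, apart from Tlr1 with its 2 counts in neurons. These comparisons share libraries and are not independent of one another.

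Since microglia transcripts are in every group, the genes were also set against them: each library was scaled to its counts of the 19 microglia markers in place of its total. On this scale most of the transcriptome is lower in microglia by construction: 84.5% of all genes were lower against the input (84.9% called in all), 91.1% against astrocytes (91.2% called in all) and 91.5% against neurons. The median log2 fold change of all genes was -2.405 against the input, -3.695 against astrocytes and -3.296 against neurons. A call of lower does then not by itself set a gene apart on this scale. Of the 8 genes, only Tlr3 was lower in microglia than in the input (-1.93 ± 0.48, adjusted p = 0.000841), less so than the median gene. The other 7 did not pass, at -0.85 ± 0.50 for Tlr13 to 0.28 ± 0.53 for Tlr1. In a fit to these 2 groups alone, Tlr2, Tlr4 and Tlr13 were lower in microglia as well (-0.53, -0.67 and -0.87). In that fit 10226 of all 11103 genes were lower and 88 higher, with a median of -2.476.

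Per 1000 microglia marker counts, Tlr3 had 3, 2.9, 2.2 and 1.84 counts in microglia, against 10.7, 11.1, 7.76 and 8.22 in the input. Astrocytes had 116, 24.7, 108 and 35.6, and neurons had 6.69, 4.26, 4.45 and 7.91. No microglia library reached the lowest library of any other group. The astrocyte libraries with more microglia transcripts, 3 and 5, were the lower of the 4. Per microglia transcript, Tlr3 was 28.6-fold lower in microglia than in astrocytes (log2 fold change -4.84 ± 0.49, adjusted p = 4.88e-09), and lower than in neurons by a log2 fold change of -1.20 ± 0.53 (adjusted p = 0.0377). The medians of all genes were -3.695 against astrocytes and -3.296 against neurons, so that Tlr3 lay below the first and above the second. That call against neurons was lost with the animal as a block (-1.20, adjusted p = 0.0566) and without microglia 4 or 5 or neurons 2 or 5 (-1.03 to -1.14).

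In the comparison with astrocytes per microglia transcript, 5 of the 8 genes did not pass (Tlr1, Tlr2, Tlr7, Tlr13 and Cd14), at -0.73 ± 0.57 for Tlr2 to 0.23 ± 0.59 for Cd14. Tlr4 was lower in microglia (-1.32 ± 0.60, adjusted p = 0.0418), a call lost with the animal as a block (-1.29, adjusted p = 0.0847) and without microglia 2, 4 or 5, astrocytes 2 or 4, or any 1 input library (-1.09 to -1.42). Tlr12 was higher in microglia (adjusted p = 0.0136), with 2 counts in astrocytes, where 0.055% of all genes were higher. That call was lost without astrocytes 4 (adjusted p = 0.0543) or 5 (adjusted p = 0.0584). In the comparison with neurons, the 7 genes other than Tlr3 did not pass, though Cd14 (1.33 ± 0.69, adjusted p = 0.0584) did without astrocytes 5 (1.34, adjusted p = 0.0476). Tlr1 passed without neurons 4 (adjusted p = 0.0469), where neurons have no count of it left.

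**Figure D4:**
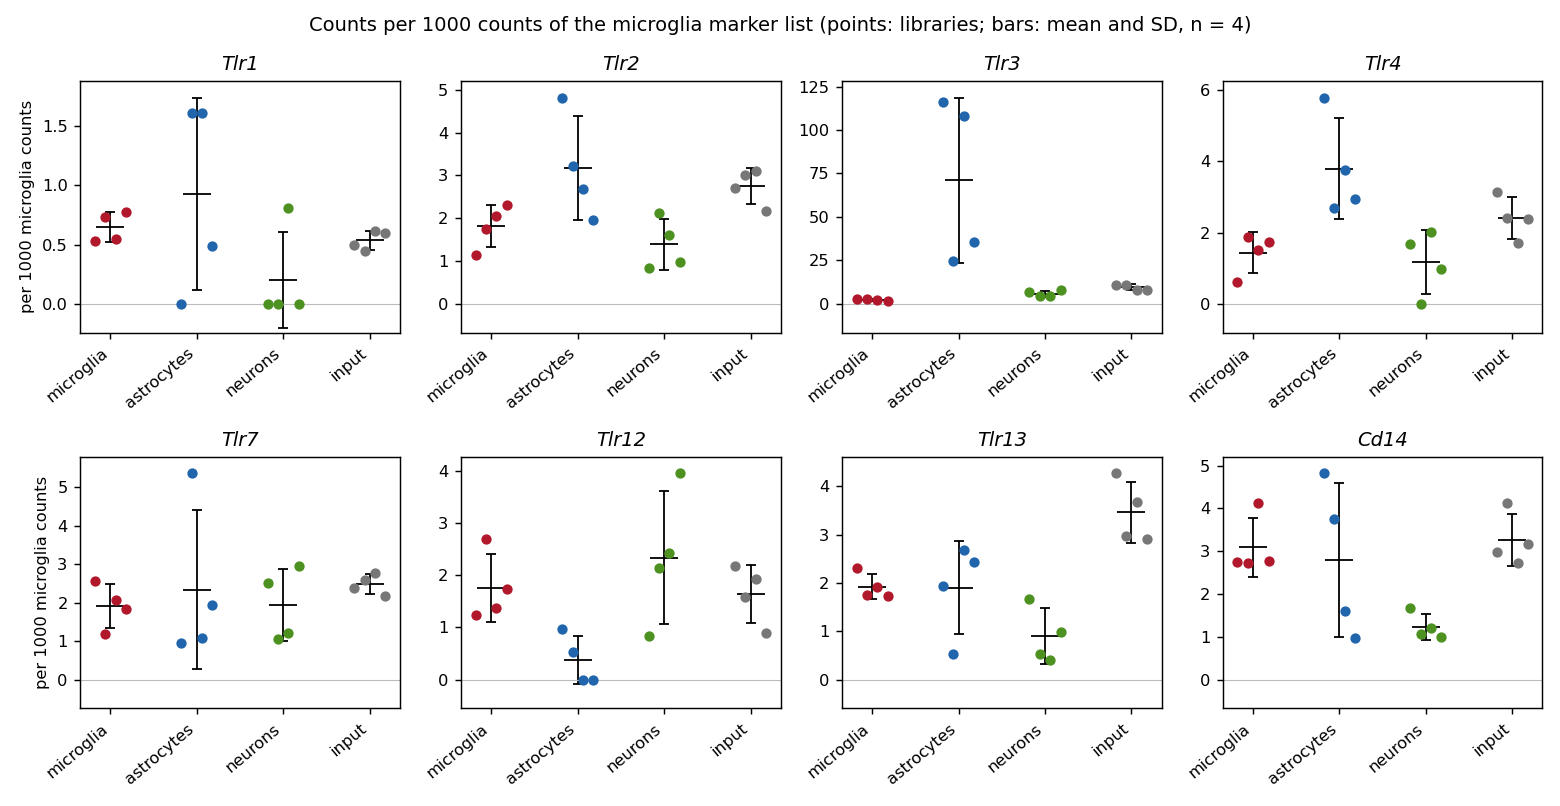
Counts of the 8 tested genes per 1000 counts of the 19 microglia markers (y axis) in microglia, astrocytes, neurons and input, with 1 point per library and the mean and SD of n = 4. Tlr3 stands at 1.84 to 3 in microglia and at 24.7 to 116 in astrocytes, while the libraries of microglia and input overlap for Tlr1, Tlr2, Tlr4, Tlr7, Tlr12 and Cd14.

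Other genes of the pathway were taken from lists by role, and from each list the 4 with the highest mean CPM are named. The counts of each list stand beside the shares of all tested genes against the input. These were 24.1% higher and 29.8% lower in microglia, 16.3% and 19.1% in astrocytes, and 11.2% and 13.7% in neurons. Among 8 other receptors and co-receptors, 4 were tested, and 3 of them were higher in microglia than in the input. Ly86, which encodes the MD-1 partner of the B cell and macrophage receptor Cd180, averaged 531.2 CPM in microglia and 101.2 CPM in the input (2.40 ± 0.32, adjusted p = 5.86e-07). Cd180 (1.95 ± 0.37) and Tlr6 (1.80 ± 0.44), the other partner of Tlr2, were higher too. Lbp, the serum protein that binds lipopolysaccharide, was lower in all 3 sorted groups. It averaged 6.571 CPM for microglia, 10.63 for astrocytes and 8.897 for neurons, against 62.3 CPM for the input. Ly86 was lower in astrocytes (-1.61 ± 0.42) and neurons (-1.18 ± 0.42) than in the input. Tlr8 had 5 counts, all in the input, and Tlr11 had none in any library.

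Of the 9 genes for chaperones and endosomal routing, 8 were tested and 5 were higher in microglia than in the input. Unc93b1, which carries the nucleic acid receptors to endosomes, averaged 538.4 CPM in microglia and 194.8 CPM in the input (1.47 ± 0.31, adjusted p = 0.000195). It was lower than in the input in astrocytes, at 57.25 CPM (-1.87 ± 0.37, adjusted p = 0.000194), the group in which Tlr3 was highest, and in neurons (-1.52 ± 0.37, adjusted p = 0.0033). Lgmn, a lysosomal protease, was higher in microglia (2.33 ± 0.30), as was Hsp90b1, the chaperone gp96 (0.66 ± 0.25). Tmed7, a trafficking protein of Tlr4, did not pass (0.73 ± 0.36, adjusted p = 0.0842). The other 2 that were higher in microglia, Slc15a4 and Cnpy3, lie outside the naming rule and were chosen after their values were seen. In neurons, Hsp90b1 (-0.77 ± 0.26) and Slc15a4 (-1.35 ± 0.41) were lower as well.

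Adaptors and proximal kinases numbered 20, of which 17 were tested. In microglia 12 were higher than in the input and none lower, with a median of 1.22. Tab2 (1.22 ± 0.25), Irak1 (0.66 ± 0.24) and Irak2 (3.00 ± 0.36) were among them, and Peli1, a ubiquitin ligase, did not pass (0.57 ± 0.26, adjusted p = 0.0648). Irak2, a kinase of the MyD88 complex, was the 1 gene of the list that was also higher in astrocytes (3.01 ± 0.37, adjusted p = 5.88e-07), where 16.3% of all genes were higher. Irak2 averaged 110.5 CPM for microglia, 104.8 for astrocytes and 28.08 for neurons, against 12.94 CPM for the input. The microglia libraries ran from 74 to 170 CPM and the astrocyte libraries from 84.9 to 121 CPM, all above the input at 7.02 to 18 CPM. Neurons did not pass against the input (0.98 ± 0.48, adjusted p = 0.143). The part of the sort itself in the Irak2 levels was not tested. A pair of adaptors was picked after their values were seen. Myd88 was higher in microglia than in the input (1.36 ± 0.36, adjusted p = 0.00192), and so was Ticam1, which encodes TRIF, the adaptor of Tlr3 (1.13 ± 0.39, adjusted p = 0.0164). In astrocytes Ticam1 averaged 22.69 CPM, against 14.13 CPM in the input, and did not pass (0.85 ± 0.44, adjusted p = 0.132). In neurons 2 of the 17 tested genes were lower, against 13.7% of all genes. They were named after their values were seen: Irak4 (-2.73 ± 0.94, adjusted p = 0.00702) and Tirap, with 1 count (pooled level 11.1-fold lower, exact 95% interval 1.94 to 441).

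All 7 tested transcription factors of 10 were higher in microglia than in the input, with a median of 2.34. Irf8, a factor of macrophage identity (1.45 ± 0.37), Nfkb1 (2.43 ± 0.28), Rela (0.76 ± 0.28) and Rel (2.34 ± 0.34) are the 4 that the naming rule gives. In astrocytes and in neurons 1 of the 7 was lower than in the input, Irf8 in both (-1.75 ± 0.44 and -1.24 ± 0.44). Over all genes, 19.1% were lower in astrocytes and 13.7% in neurons. Of 16 genes that restrain the pathway, 9 were tested and 5 were higher in microglia. Nfkbia, the inhibitor of NF-kappaB (1.05 ± 0.25), Trim30a (1.07 ± 0.35) and the deubiquitinase Cyld (0.67 ± 0.27) were among them, and Tax1bp1 did not pass (-0.47 ± 0.24). Nfkbiz and Tnfaip3 are the other 2, named after their values were seen. In astrocytes 3 of the 9 were lower than in the input, Trim30a (-2.13 ± 0.50), Cyld (-1.08 ± 0.32) and Tax1bp1 (-0.80 ± 0.25). One was higher, Nfkbib, also named after its value was seen (1.26 ± 0.47). None of the 9 passed in neurons.

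Genes induced by Toll-like receptor signals were mostly too low to test, with 3 of 12 passing the filter. All 3 were higher in microglia than in the input. The chemokine genes Ccl4 and Ccl3 averaged 299.6 and 166.5 CPM in microglia, against 16.78 and 6.935 CPM in the input, and the cytokine gene Il1b 106.7 CPM, against 7.248 CPM. Their log2 fold changes were 4.17 ± 0.37, 4.62 ± 0.39 and 3.88 ± 0.42. The median of the 19 microglia markers was 2.33 in the same comparison. The part of the sort itself in these levels was not tested. Cxcl10, not tested, ran from 20.6 to 65.1 CPM in microglia and from 2.55 to 4.33 CPM in the input. In neurons Ccl4 was higher than in the input (1.79 ± 0.44, adjusted p = 0.00423). All 4 tested markers of T and NK cells were also higher there, and the 7 in the table summed to 226.9 to 467.9 CPM in neurons, against 6.662 to 11.42 CPM in the input; their part in the Ccl4 level was not tested. None of the 3 passed in astrocytes.

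**Figure D5:**
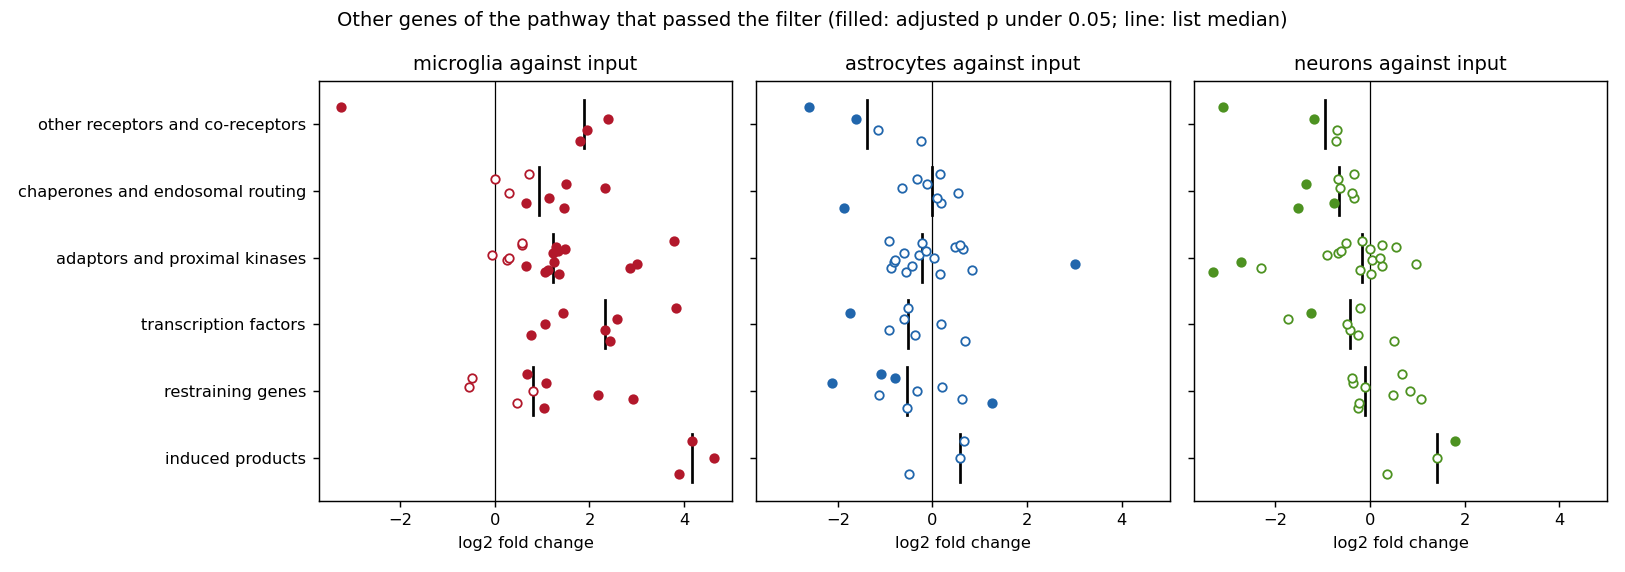
Log2 fold changes (x axes) of the tested genes of 6 pathway lists (y axis) in microglia, astrocytes and neurons against the input, 1 point per gene, filled where the adjusted p was under 0.05, with the median of each list as a line. Tirap and Ticam2 have 1 count each in neurons, and their points there are fitted values only. All 7 transcription factors and all 3 induced products are filled to the right of 0 in microglia, and 1 adaptor, Irak2, is in astrocytes.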

How the data were processed

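Counts per gene of 16 libraries of a 3' kit with molecular identifiers, read as 65 base single ends, were used as the authors deposited them: raw counts, per the file headers. Every count of at least 100, 28936 in all, carries 2 significant digits, so it may be off by up to 5%. STAR, featureCounts, edgeR, Subread 1.6.2 and GRCm38.p6 are listed in the submitters' processing notes, with no roles. The authors also deposited a library total and a scaling factor, a ratio, which entered 1 alternative. Their normalized table was not used.

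Counts were fitted with edgeR 4.0.16 (R 4.3.3): filterByExpr by group, TMM scaling, 1 mean per group over all 16 libraries, a two-sided quasi-likelihood test for each of the 6 pairs of groups, and Benjamini-Hochberg adjustment over the 9091 genes tested, with a threshold of 0.05. The common dispersion was 0.0733. For the 3 comparisons per microglia transcript, each library was scaled to its summed counts of the microglia markers. Genes with 1 to 3 counts in a group are given as pooled ratios with exact 95% intervals, and 0 counts at a floor of 3 counts over the group. The computation was tested on simulated counts.

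The genes, lists and tests were chosen with earlier results of these data known. All 10 genes are named, and from each pathway list the top 4 by mean level across libraries. Listed markers that were not matched are not analysed here. Animals pair the libraries, per the labels: same-numbered libraries come from 1 animal. Their deviations from the group means correlated between -0.0865 and 0.105 across genes in the 24 pairs of libraries. The animal entered as a block in an alternative. Other alternatives were RLE scaling, library totals only, glmTreat against a 2-fold change, no filter, only the 2 groups compared, DESeq2 1.42.0, thinning to the smallest library, a shorter microglia list, leaving out animal 5 and each library in turn. Leaving out astrocytes 3 and 5 together, and the deposited totals with their factors, were added after the data were seen.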

Additional observations from a re-analysis of the deposited data

Results flagged for a closer look

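Of 34 sets of 4 libraries, 1 per gene and group with more than 3 counts, 2 had a library set apart from the other 3 by a gap wider than Dixon's critical value at the 95% level allows. Chance gives such a gap in about 1 in 20 sets. Tlr3 stood at 230 CPM in astrocytes 3, against 323 to 332 CPM in the other 3 astrocyte libraries, a gap of 0.917 of the range. The astrocyte markers were also lowest in that library, at 29500 CPM against 32920 to 43340 CPM, and per 1000 CPM of those markers Tlr3 was 7.79, within the 7.66 to 9.82 of the others. Their part in the lower Tlr3 was not tested. Cd14 stood at 43.3 CPM in input 3, against 34.2 to 35.1 CPM in the other 3 input libraries, a gap of 0.903 of the range.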

How the results depend on the processing

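Of 1785 values of single genes and comparisons under an alternative, 1696 kept their direction and their side of the threshold, 53 lost a call, 16 gained one and 20 changed sign. None of the 20 sign changes concerned a called value. With only library totals the median of all genes moved from -0.09 to -0.41 for astrocytes against the input, where Tlr2 (-1.36) and Tlr7 (-1.36) then passed, and was -0.17 for microglia and -0.25 for neurons against the input. RLE moved the neuron median from -0.11 to 0.04. Of the calls of the main TMM fit, RLE ended 1, Tlr4 in neurons against the input (-1.54), and the deposited totals with their factors none.

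The count of 7 genes called in microglia against the input was 2 after thinning. In every comparison, 3 of the genes were then still tested. Of all 3842 genes tested after thinning, 841 were higher and 955 lower in microglia than in the input. After thinning, the counts of listed genes were 2 for microglia against astrocytes (8 before), 3 for microglia against neurons (8) and 2 for astrocytes against the input (4). They were 1 for neurons against the input (5) and 1 for astrocytes against neurons (2). Over all genes, 913 were higher and 1039 lower for microglia against astrocytes, and 724 and 973 for microglia against neurons. Against the input, 619 were higher and 504 lower in astrocytes, and 454 and 329 in neurons. For astrocytes against neurons, 591 were higher and 509 lower. Against a 2-fold change, 2 of the 8 genes were called in astrocytes and 1 in neurons, each against the input. Of all 9091 genes, 472 were higher and 493 lower in astrocytes by that test, and 261 and 168 in neurons. Fits to only 2 groups gave 1 listed gene for astrocytes against neurons, where 1 of the 8 genes was tested. There 796 of all 4865 genes were higher and 596 lower. For microglia against the input per microglia transcript, such a fit gave 4 listed genes in place of 1. There 88 of all 11103 genes were higher and 10226 lower. Without animal 5 the counts of listed genes were 3 for neurons against the input, and per microglia transcript 1 in place of 3 against astrocytes and 0 in place of 1 against neurons. Of all 9161 genes, 734 were then higher and 683 lower in neurons than in the input. Per microglia transcript, 4 were higher and 8258 lower against astrocytes, and 0 and 7709 against neurons. Per microglia transcript against neurons, the count of listed genes was also 0 with no filter and 0 with the replicate block. Over all genes, 12102 of 16540 were lower with no filter and 8144 of 9091 with the block. Without astrocytes 3 and 5, the counts of listed genes per microglia transcript were 2 against the input and 2 against neurons. Of all 10894 genes, 58 were then higher and 9506 lower against the input, and 3 and 9910 against neurons. Leaving out 1 library gave 3 to 6 listed genes for neurons, 3 to 6 for astrocytes and 7 to 8 for microglia, each against the input. Of the 8978 to 9968 genes tested in these fits, 751 to 1546 were higher and 799 to 1416 lower in neurons. The ranges were 1149 to 1920 and 961 to 1990 in astrocytes, and 1842 to 2818 and 2218 to 2999 in microglia. It gave 8 to 9 for microglia against astrocytes and against neurons, and 1 to 2 for astrocytes against neurons. Per microglia transcript these ranges were 1 to 1 against the input, 1 to 3 against astrocytes and 0 to 2 against neurons. Over all genes, 7046 to 8471 were lower in microglia against the input, 7818 to 8970 against astrocytes and 8044 to 9047 against neurons. Calls over all genes moved as well. Without neurons 3, 751 of 9830 genes were higher and 799 lower in neurons than in the input. Without astrocytes 4, 1335 of 9053 were higher and 961 lower in astrocytes than in the input. The causes were not tested.

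Animals as a block ended 3 calls, of Tlr4 in neurons against the input (-1.68) and, per microglia transcript, of Tlr4 against astrocytes (-1.29) and Tlr3 against neurons (-1.20), and changed no other call.

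Signs turned only for values that did not pass. Leave-one-out ranges that crossed 0 were -0.87 to 0.27 for Tlr1 in astrocytes against the input and -0.89 to 0.79 for Tlr7 in astrocytes against neurons. Per microglia transcript they were -0.25 to 0.061 for Cd14 and -0.17 to 0.27 for Tlr12 against the input, -0.077 to 0.56 for Cd14, -0.33 to 0.24 for Tlr13 and -0.62 to 0.45 for Tlr7 against astrocytes, and -0.17 to 0.94 for Tlr4 and -0.12 to 0.345 for Tlr7 against neurons. Without astrocytes 3 and 5, Tlr7 was -1.83 in astrocytes against neurons, and per microglia transcript against astrocytes Tlr7 was 0.87 and Tlr13 -0.32. Without animal 5, Cd14 was -0.03 against astrocytes and Tlr12 -0.088 against the input per microglia transcript, and with 4 microglia genes Cd14 was 0.18 against the input. Depth limits the genes in neurons most, where 1 count is worth up to 8.54 CPM.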

Other observations

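The genes whose levels ran most like those of these receptors are given as a description over 16 libraries, which fall into 4 groups and share depth within a group. Tlr3 ran most like Serpine2 (Pearson r of log2(CPM + 1) = 0.933), which encodes a secreted protease inhibitor, then Atl2 (0.921) and Gpr146 (0.917). Cd14 ran most like Kcnk13 (0.969), a potassium channel gene, then Upk1b (0.962) and Rab3il1 (0.956). Tlr2 ran most like Il6st (0.964), Nrros (0.958) and Kcnk13 (0.957), and Tlr7 most like Bmf (0.962), Gpr183 (0.958) and the complement receptor gene C5ar1 (0.956). Among the 8 tested receptor genes, the 21 pairs without Tlr3 had r from 0.478 to 0.954, and the 7 pairs with Tlr3 from -0.326 to 0.563.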
